A study of Mus musculus with 33 samples.

Results

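Collagen chain genes were taken as the genes whose symbol is Col, a number, a and a number. On the arrays of mouse dorsal skin analysed here 42 of 18193 genes had such a symbol, read from probe sets that carry a single gene symbol. The 42 genes had 82 probe sets, and each gene is described by the probe set with the highest mean log2 value over all 33 arrays. For 33 of the 42 genes that probe set passed the filter on low signals, which asks for 3 or more arrays with a signal over the median of that array, and only these 33 were tested, among 12859 genes tested in all. Col10a1, Col11a2, Col19a1, Col24a1, Col25a1, Col26a1, Col6a4, Col6a5 and Col9a2 did not pass. By the type of molecule that they build, the genes were split into fibrillar chains (11 genes, 9 tested), basement membrane chains (6 and 6), network-forming chains (3 and 2), beaded filament chains (5 and 3), FACITs, the collagens that sit on the surface of fibrils (9 and 7), transmembrane chains (4 and 3), multiplexins (2 and 2), the anchoring fibril chain (1 and 1) and 1 gene, Col26a1, left outside these types.

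All mice were wild-type C57BL/6, with the upper-mid dorsal skin of 1 mouse on each array. The natural cycle, the second postnatal hair cycle, was sampled at early anagen (P23 and P25, postnatal days, 2 arrays each), mid anagen (P27, 3 arrays), late anagen (P29, 3 arrays, and P34, 1 array), early catagen (P37 and P39, 3 arrays each), mid catagen (P41, 3 arrays) and telogen (P44, 3 arrays). Anagen is the growth phase of the hair follicle, catagen its regression and telogen its rest. The P34 array, which stands alone at its day, entered only the fits over all arrays. The second course was started by pulling the hair shafts with a wax and rosin mixture from mice 7 weeks old, whose follicles were all in telogen, and was sampled 3, 5, 8, 12 and 17 days later (D3, D5, D8, D12 and D17, 2 arrays each). The submitters placed D3 in early anagen, D5 in mid anagen, both D8 and D12 in late anagen, and D17 in early catagen. The mice of the natural cycle were 13 males and 10 females. Females and males were 1 and 3 in early anagen, 1 and 2 in mid anagen and 2 and 1 at P29. They were 3 and 3 in early catagen, 1 and 2 in mid catagen and 1 and 2 in telogen, and the P34 mouse was female. The comparisons of phases had no term for sex unless one is stated. The 10 waxed mice were all females, at postnatal day 50 or later. In each comparison of the 2 courses, age, sex and waxing therefore differ together and cannot be told apart, and female arrays alone are compared further on.

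Collagens are triple helices of 3 chains, made in the endoplasmic reticulum by hydroxylation, folding and export and then trimmed and crosslinked outside the cell. Type I and type III fibrils, nucleated by the minor fibrillar chains of types V and XI, are the bulk of the dermis and are made by dermal fibroblasts. Type IV networks build the basement membranes around the follicle, vessels, nerves and muscle, type VII anchors the epidermal basement membrane to the dermis, and type XVII spans the membrane of basal keratinocytes at hemidesmosomes.

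The windows around the starts of 4 genes described below are shown, and no expression result rests on their sequence. The genes are the head-to-head type IV pair Col4a1 and Col4a2, Col11a1 and Col17a1. Col11a1 had the largest difference of any chain gene in both courses. Col17a1 was one of the chains that stood higher after waxing than in natural early anagen. Sequences are from RefSeq on the build GRCm38.p6, 5′ to 3′ on the strand of the gene. Each runs from 250 bases before to 50 after the start on which the window was set. For Col4a1 and Col11a1 this start lies inside the gene, whose first base in RefSeq is 11312889 and 114030479. Capitals are on every match, on either strand, to the letters of the TATA motif (TATAAA) or of the motif of GC boxes (GGGCGG). They are also on every match to the common promoter motif known by its own letters (CCAAT). The window of Col4a1 is chr8:11312777-11313076 on the minus strand, that of Col4a2 chr8:11312555-11312854 on the plus strand, that of Col11a1 chr3:114030290-114030589 on the plus strand and that of Col17a1 chr19:47691993-47692292 on the minus strand.
Col4a1: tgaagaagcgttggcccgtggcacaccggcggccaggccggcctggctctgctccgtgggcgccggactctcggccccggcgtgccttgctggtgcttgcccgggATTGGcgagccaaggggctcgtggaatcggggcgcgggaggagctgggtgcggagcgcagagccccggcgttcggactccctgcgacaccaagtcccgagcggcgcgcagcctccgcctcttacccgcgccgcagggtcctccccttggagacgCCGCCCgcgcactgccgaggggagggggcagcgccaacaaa
Col4a2: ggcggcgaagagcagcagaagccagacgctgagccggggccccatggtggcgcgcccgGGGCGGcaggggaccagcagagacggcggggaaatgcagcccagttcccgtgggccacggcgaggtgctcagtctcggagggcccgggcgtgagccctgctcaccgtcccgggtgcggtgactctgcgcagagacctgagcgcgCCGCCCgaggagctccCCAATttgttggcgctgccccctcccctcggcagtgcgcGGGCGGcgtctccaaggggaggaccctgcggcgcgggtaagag
Col11a1: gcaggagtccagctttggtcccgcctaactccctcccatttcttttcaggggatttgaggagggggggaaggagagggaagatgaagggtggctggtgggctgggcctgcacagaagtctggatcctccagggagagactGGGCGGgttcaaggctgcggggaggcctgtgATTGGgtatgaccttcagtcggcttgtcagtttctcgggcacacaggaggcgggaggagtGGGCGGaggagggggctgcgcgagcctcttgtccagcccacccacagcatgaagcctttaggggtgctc
Col17a1: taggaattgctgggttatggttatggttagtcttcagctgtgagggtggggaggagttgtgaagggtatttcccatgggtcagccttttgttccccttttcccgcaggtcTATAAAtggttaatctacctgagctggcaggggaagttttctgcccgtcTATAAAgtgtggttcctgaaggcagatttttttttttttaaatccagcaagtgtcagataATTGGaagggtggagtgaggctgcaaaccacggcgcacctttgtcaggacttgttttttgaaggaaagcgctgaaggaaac
The windows of Col4a1 and Col4a2 share 78 bases on opposite strands, from 11312777 to 11312854 on chromosome 8. In the order of protein-coding genes in RefSeq, 7 pairs of chain genes are direct neighbours, among them Col4a1 and Col4a2, Col4a3 and Col4a4, Col4a5 and Col4a6, Col6a1 and Col6a2, and Col3a1 and Col5a2. Windows were given for 33 of the 42 genes. GGGCGG was in 63.6% of these and in 35.7% of all 32851 windows of this length, CCAAT in 36.4% and 37.4%, and TATAAA in 15.2% and 13.6%. TATAAA is in none of the windows of Col4a1, Col4a2 and Col11a1 and is in that of Col17a1, first at base -140 and again at base -91 from the gene start. The matches describe letters and not sites of binding. No 2 matches overlap in the windows shown.

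Median signal was 111 to 143 on the 33 arrays, and the trimmed mean was 497 to 498. Arrays of one time point correlated at Pearson r of 0.943 to 0.98 over the kept probe sets. All collagen probe sets together took 0.226% to 0.748% of the signal of an array. Xist was 8429 to 15045 on female arrays and 33.5 to 561 on male ones, and Eif2s3y, on the Y chromosome, was at most 45.2 on female arrays and at least 1525 on male ones. The markers of skin cells counted below had all passed the filter on low signals. None of them could therefore lie under the floor of 34.6 on every array, and their presence was not checked in another way.

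Across the 6 natural phases, 26 of the 33 tested chain genes changed (limma F test, 22 arrays), against 77.1% of all genes tested. Col9a3 is among them, but it passed the filter on low signals only through its mid catagen arrays. Its call in this F test is therefore no result, and the rises and falls into and out of mid catagen are also counted without it. The counts of the F test, of groups without overlap and with arrays left out are not given without it. From early to mid anagen 0 rose and 15 fell, where 6.22% of all genes rose and 12.6% fell. From mid to late anagen, and from late anagen to early catagen, 0 chain genes and 0 of all genes passed in limma (0% background in each direction), with 10 and 4 chain genes at an unadjusted p under 0.05. The share of all genes at that unadjusted threshold is not given here, so the 10 and 4 have no background to be set against. From early to mid catagen 15 rose (14 without Col9a3) and 1 fell, beside 20.6% and 18.5% of all genes. From mid catagen to telogen 2 rose and 2 fell, or 1 without Col9a3 (2.68% and 4.37% of all genes), and 1 or 2 were called without any 1 of the 6 arrays. Telogen stood above late anagen for 15 chain genes and below it for 3, against 28.7% and 20.5% of all genes. Early anagen was above telogen for 6 and below it for 2, where 15.4% and 14.6% of all genes were called. All 15 genes that fell from early to mid anagen had groups that did not overlap, as did 12 of the 16 called in mid catagen, Col9a3 included. Called or not, 19 and 15 of the 33 tested chain genes had no overlap in these comparisons. The share of all genes without overlap is not given here, so the separation is no further result about the chain genes.

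**Figure D1:**
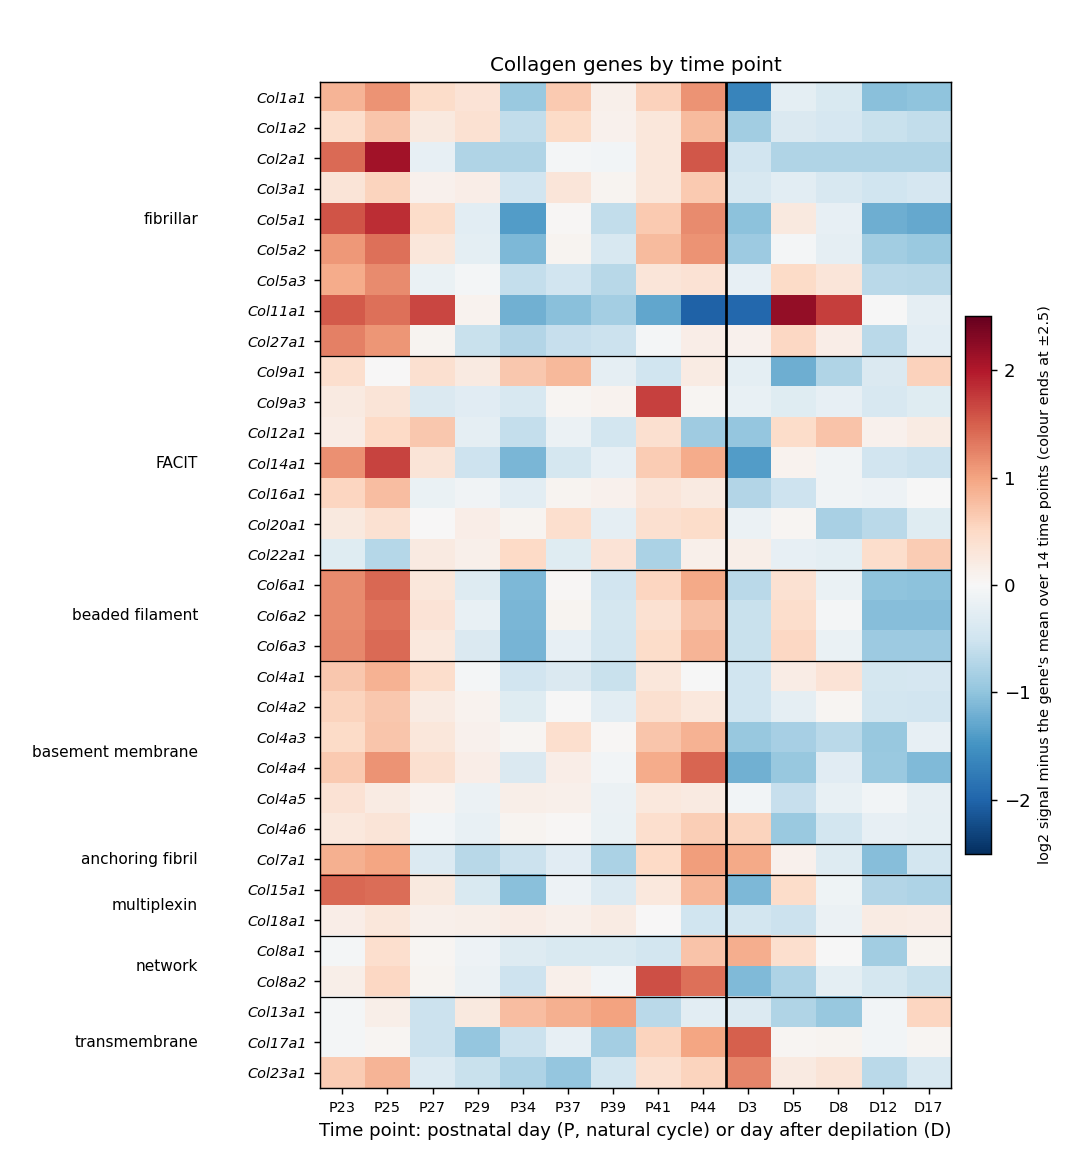
Mean log2 signal of each of the 33 tested collagen chain genes (rows, by type) at each time point (columns), as the difference from the mean of the gene over the columns (colour). Values run from -2.02 to 2.20. The rows of Col5a1, Col5a2 and the type VI chains are high at P23, P25 and P44 and low at P34 and at D12.

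With P25 alone as early anagen, 3 genes passed from early to mid anagen and 4 between early anagen and telogen. Without replicate 2 of P27 the fall to mid anagen held for 9 genes, and without replicate 2 or 3 of P41 the change to mid catagen held for 9 or 10.

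Among the fibrillar genes, Col1a1 and Col1a2 encode both chains of type I collagen and Col3a1 the chain of type III. Signals of Col1a1 were 32450.4, 31377, 38926 and 37789 in early anagen, 27990.2, 23470.1 and 22146 in mid anagen and 33539.6, 22203 and 15519 in late anagen. In early catagen they were 12671 at the lowest, 26080.1 at the median and 34526 at the highest, in mid catagen 18024, 32683 and 31226 and in telogen 26044, 50018 and 44273. The phases after early anagen overlapped widely, and only the step from early to mid anagen passed, at -0.52 ± 0.14, adjusted p = 0.0394, log2 difference with its standard error. That call was lost when any 1 of its 7 arrays was left out, with adjusted p up to 0.132. Col3a1 was at 36596, 34905, 39862 and 44616 in early anagen, 33150.4, 29418 and 30202 in mid anagen and 38164, 30037 and 28866 in late anagen. Its early catagen arrays were 24007 at the lowest, 33809 at the median and 39070 at the highest, those of mid catagen 30286, 37622 and 37086 and those of telogen 36627, 54462 and 45847. No natural step passed for Col3a1, and the natural F tests of Col1a1, Col1a2 and Col3a1 had adjusted p of 0.178, 0.148 and 0.0637.

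These 3 probe sets were among the brightest on the arrays, with signals reaching 95.6% (Col1a1), 98.8% (Col1a2) and 100% (Col3a1) of the highest signal of an array. Their second probe sets were dimmer and gave larger falls from early to mid anagen. For Col1a1 the difference was -1.57 (adjusted p = 0.00961) with the second probe set, for Col3a1 -1.01 (adjusted p = 0.011) against -0.33 (adjusted p = 0.104) with the first, and for Col1a2 -0.47 (adjusted p = 0.0497) against -0.32 (adjusted p = 0.149). One more probe set of Col1a2 gave -1.26 (adjusted p = 0.0133). Over all comparisons, 19 chain genes had more than 1 kept probe set, and of 84 calls of such genes 81 had every kept probe set in the same direction, 57 had every one called and 0 had one called in the opposite direction. Between telogen and late anagen all 11 such calls had every kept probe set in the same direction, and 5 had every one called.

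Type V and type XI chains are the minor chains that nucleate fibrils. Col5a1 signals were 7632, 7274, 9865 and 8280 in early anagen, 4126, 2672 and 3709 in mid anagen and 2754, 2268 and 1499 in late anagen. Its telogen arrays were at 3065, 9046 and 6819. It fell from early to mid anagen by 1.25 on the log2 scale (adjusted p = 0.00734) with no overlap of the groups. Col5a2, its partner chain, fell by 0.95 (adjusted p = 0.0144), and Col5a3, another type V chain, fell by 1.22 (adjusted p = 0.00894). Both Col5a1 and Col5a2 were above late anagen in telogen, by 1.45 ± 0.43 and 1.37 ± 0.32. For this comparison a second probe set of Col5a2 gave 1.09 (adjusted p = 0.132). The other probe sets of Col5a1 gave 1.51 (adjusted p = 0.0382) and 1.22 (adjusted p = 0.0625). Males were 1 of 3 late anagen and 2 of 3 telogen mice. Within time points of the natural cycle, the male minus female differences of Col5a1 and Col5a2 were 0.57 and 0.53, neither of them called. For Col5a1 the telogen female was at 3065 and the late anagen male at 2754. How far sex enters these phase differences is not given here. Col5a3 also passed for early anagen over telogen (0.69 ± 0.20, adjusted p = 0.0398), lost without any 1 of 5 of the 7 arrays. The telogen difference of Col5a1 was lost without replicate 2 or 3 of P29 or of P44, with adjusted p up to 0.0992.

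Col11a1, a type XI chain best known from cartilage, had another course. Its signals were 815, 1051, 581 and 1187 in early anagen and 976, 769.9 and 1419 in mid anagen. In late anagen they were 319, 325 and 369, in mid catagen 101, 133 and 164 and in telogen 106, 58.6 and 77.9. Early catagen arrays were 92.8 at the lowest, 171 at the median and 272 at the highest, and the single P34 array was at 139. Every early and mid anagen array lay above every later array of the natural cycle, and early and mid anagen overlapped (0.22 ± 0.30, adjusted p = 0.628). Early anagen was 11.2-fold above telogen (3.48 ± 0.29, adjusted p = 0.000603), and telogen was below late anagen (-2.10 ± 0.23, adjusted p = 0.000711). The drop from mid to late anagen was -1.60 ± 0.23, adjusted p = 0.146, a step at which 0 genes passed, although the groups did not overlap. A second probe set gave 3.02 (adjusted p = 0.00271) for early anagen against telogen.

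Col27a1 encodes a fibrillar chain of growing cartilage. It was 889, 834, 808 and 735 in early anagen, 309.5, 369.6 and 476 in mid anagen and 245, 339 and 177 in late anagen. Its telogen arrays were 489, 384 and 354. Early anagen was above telogen (1.01 ± 0.14, adjusted p = 0.00351) and mid anagen below early anagen (-1.10 ± 0.16, adjusted p = 0.00748), with no overlap in either. Col2a1, the main chain of cartilage fibrils, was above the array median on only 8 arrays, and 19 of its 33 values were under the floor. Its fall from early to mid anagen, -1.96 ± 0.40, and its higher level in telogen than in late anagen, 2.31 ± 0.45, were therefore measured against values at or near the floor.

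**Figure D2:**
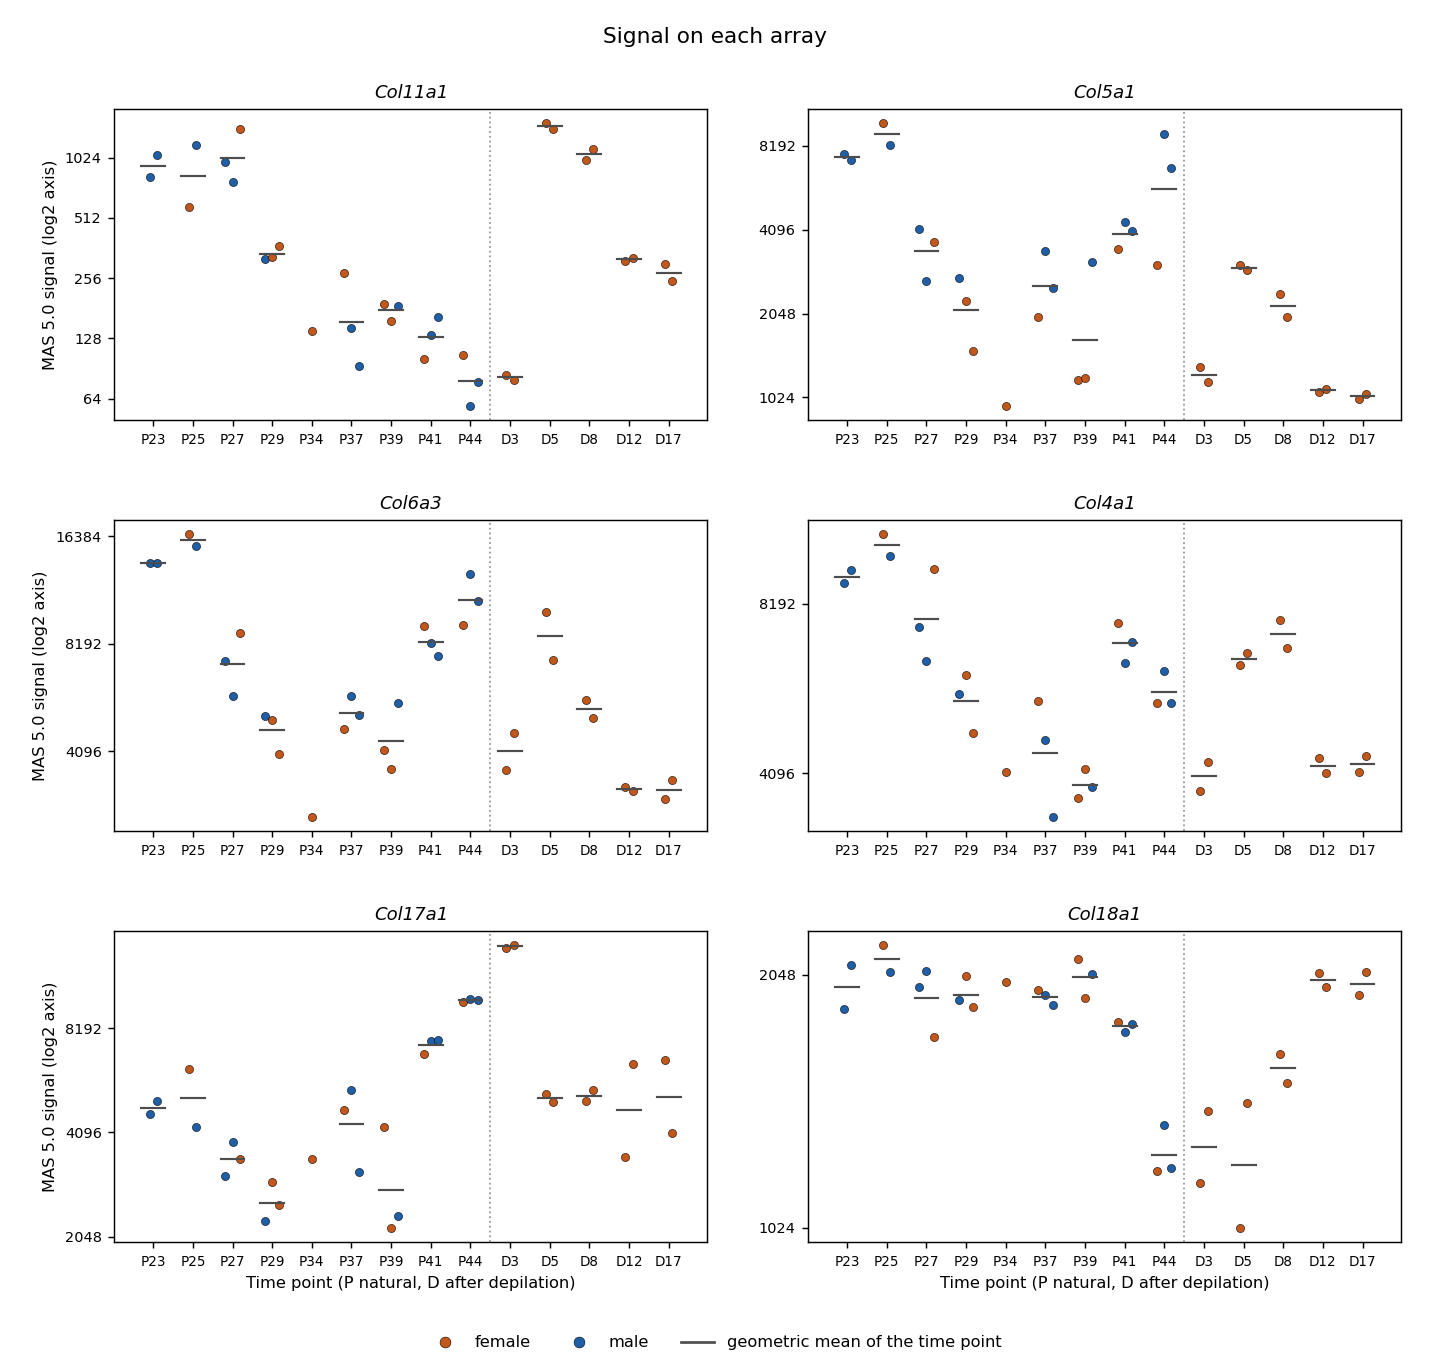
Signal on every array (log axis) for Col11a1, Col5a1, Col6a3, Col4a1, Col17a1 and Col18a1, by time point of the natural cycle and after depilation, with 1 point for each array, coloured by sex, and a line for the geometric mean of the time point. Col11a1 is low on all telogen and D3 arrays and high at D5, and Col17a1 is highest on the D3 arrays.

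FACIT chains lie on fibrils and link them to their surroundings. Col12a1 was 993, 1055, 1061 and 1529 in early anagen, 1377, 1408 and 1501 in mid anagen and 702, 945 and 683 in late anagen. It was 1373, 937 and 1299.7 in mid catagen and 456, 415 and 612 in telogen, with early catagen arrays 611 at the lowest, 740.4 at the median and 855 at the highest. The telogen arrays lay below all anagen and mid catagen arrays other than that of P34. Early anagen was higher than telogen (1.23 ± 0.20, adjusted p = 0.0059), mid catagen higher than early catagen (0.70 ± 0.16, adjusted p = 0.00915) and telogen lower than mid catagen (-1.28 ± 0.22, adjusted p = 0.0259). The last call was lost without replicate 1 or 3 of P41 or replicate 1 or 2 of P44, with adjusted p up to 0.0931. A second kept probe set of Col12a1 gave 0.75 (adjusted p = 0.0829) for early anagen against telogen, which did not pass. For mid against early catagen it gave 0.13 (adjusted p = 0.622), so that rise was called with 1 probe set only. Col14a1, which binds fibrils through decorin, was instead 4667, 4413, 7376 and 5944 in early anagen, 2489.9, 1931 and 3564 in mid anagen and 1569, 1489 and 1267 in late anagen. In mid catagen it was 2944, 3464 and 3146 and in telogen 4422, 3345 and 4050.2, both above all late anagen and early catagen arrays. It fell from early to mid anagen (-1.09 ± 0.26, adjusted p = 0.0271) and rose from early to mid catagen (0.96 ± 0.16, adjusted p = 0.00213), and telogen was above late anagen by 1.45 ± 0.16. The call from early to mid anagen was lost without replicate 1 of P23, replicate 2 of P25 or replicate 1 or 2 of P27. Col16a1 fell to mid anagen by 0.83 (adjusted p = 0.0209).

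Of the other FACIT genes, Col9a3 was read near the floor, above the array median on only 3 arrays. These were its mid catagen arrays, at 159.9, 133 and 159, while all other arrays lay between 13.9 and 82.7. Since Col9a3 passed the filter only through these arrays, its calls in mid catagen (1.65 ± 0.26) and against telogen (-1.67 ± 0.24) are given as values only. Col20a1, Col22a1 and Col9a1, above the median on 6, 3 and 6 arrays, did not pass the natural F test.

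Type VI collagen forms beaded filaments close to cells, and its 3 main chains moved together. Col6a1 was 11717, 11987, 14291 and 13942 in early anagen, 6725, 5265 and 7165 in mid anagen and 5921, 3809 and 3196 in late anagen. It was 6157, 8389 and 8362 in mid catagen and 7412, 12943 and 10835 in telogen, with early catagen arrays 2774 at the lowest, 4889.6 at the median and 6428 at the highest. Col6a3 was 13773, 13789.7, 16607 and 15427 in early anagen, 7306, 5829.8 and 8758 in mid anagen and 5123, 5017 and 4025 in late anagen. Its mid catagen arrays were 9164, 8216 and 7566 and its telogen arrays 9262, 12875 and 10824, with early catagen 3643 at the lowest, 4954 at the median and 5840.4 at the highest. Every early anagen array of both genes was above every mid anagen, late anagen and catagen array. The fall to mid anagen was -1.03 ± 0.15, adjusted p = 0.00713 for Col6a1, -0.92 ± 0.13, adjusted p = 0.00609 for Col6a2 and -1.04 ± 0.16, adjusted p = 0.00836 for Col6a3. Only Col6a3 passed on the way up to mid catagen (0.79 ± 0.16, adjusted p = 0.00565), and all 3 were higher in telogen than in late anagen, by 1.28, 0.91 and 1.21. A second probe set of Col6a2 gave 0.94 for telogen against late anagen and did not pass (adjusted p = 0.0673). With P25 alone as early anagen the fall of Col6a3 was -1.15 (adjusted p = 0.0544). The other 2 chains of this type, Col6a4 and Col6a5, were under the floor on 22 and 26 arrays.

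The 6 basement membrane chains all belong to type IV and lie in 3 neighbouring pairs. Col4a1, whose chain with that of Col4a2 forms the common network of basement membranes, was 8909.5, 9399, 10896 and 9956 in early anagen, 7447, 6492 and 9451 in mid anagen and 5671, 6123 and 4819 in late anagen. In mid catagen it was 7561, 6436 and 7019 and in telogen 5465, 6222 and 5464, with early catagen arrays 3421 at the lowest, 4017 at the median and 5501 at the highest. Early anagen was above telogen (0.77 ± 0.12, adjusted p = 0.00436), and mid catagen was above early catagen (0.75 ± 0.15, adjusted p = 0.00605), both without overlap. Col4a2, which shares the start region shown above, was 4654, 4649.7, 5187 and 4864 in early anagen and 3861, 4118 and 3441 in telogen. It passed in mid catagen (0.53 ± 0.15, adjusted p = 0.0222) and from early to mid anagen (-0.42 ± 0.11, adjusted p = 0.0377), and the second call was lost without any 1 of 6 of the 7 arrays. For early anagen against telogen Col4a2 gave 0.35 ± 0.11, adjusted p = 0.055, and that difference from Col4a1 was not tested.

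Col4a6, a chain of epithelial and smooth muscle basement membranes, was 424, 517, 508 and 478 in early anagen, 339.6, 406 and 379 in mid anagen and 295, 370 and 380.4 in late anagen. It was 473, 517 and 592 in mid catagen and 621, 556 and 635 in telogen, with early catagen 322 at the lowest, 360.1 at the median and 476 at the highest. The telogen arrays were the highest of the natural cycle apart from 1 mid catagen array at 592, and telogen was above late anagen (0.80 ± 0.15, adjusted p = 0.00565). Its neighbour Col4a5 varied little, between 1129 and 1704 over the natural cycle, although its F test passed (adjusted p = 0.0216). Col4a4 was higher in telogen than in late anagen (1.30 ± 0.19, adjusted p = 0.0021), whereas Col4a3 was above the array median on only 4 arrays and its F test gave an adjusted p of 0.173. The other probe sets of Col4a4 gave 1.22 (adjusted p = 0.0303) and 0.58 (adjusted p = 0.101). A second, similarly dim probe set of Col4a3 fell from early to mid anagen (-2.12, adjusted p = 0.00569). It rose in mid catagen (1.51, adjusted p = 0.0108), so the course of Col4a3 depends on the probe set.

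Col7a1 makes anchoring fibrils. It was 1353, 1623, 1702 and 1461 in early anagen, 453, 722 and 778 in mid anagen and 541, 566 and 386 in late anagen. Mid catagen arrays were at 1058, 1139 and 1207 and telogen arrays at 1668, 1676 and 1569.9, with early catagen 399 at the lowest, 531 at the median and 802 at the highest. The gene fell to mid anagen (-1.27 ± 0.20, adjusted p = 0.0091), rose in mid catagen (1.04 ± 0.22, adjusted p = 0.00708) and was again higher in telogen (0.53 ± 0.11, adjusted p = 0.0489), which was above late anagen by 1.74 ± 0.18. The call from mid catagen to telogen was lost without any 1 of its 6 arrays, with adjusted p up to 0.164, while the groups did not overlap.

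Col17a1, the transmembrane chain of hemidesmosomes, was 4620.1, 5044, 6255 and 4246 in early anagen, 3060.3, 3853 and 3434 in mid anagen and 2264, 2940.1 and 2526 in late anagen. It was 6911, 7546 and 7579.5 in mid catagen and 9767, 9954 and 9863 in telogen, with early catagen 2168 at the lowest, 3694 at the median and 5414 at the highest. All 3 telogen arrays were above all other natural arrays. Early anagen was below telogen (-0.98 ± 0.15, adjusted p = 0.00431), the opposite of Col11a1, and telogen was above late anagen (1.94 ± 0.14, adjusted p = 0.000209). The rise in mid catagen (1.08 ± 0.29, adjusted p = 0.0188) was lost without replicate 2 or 3 of P41, with adjusted p up to 0.0652. Col23a1, a transmembrane chain found in epidermis, was 429, 412, 505 and 482 in early anagen, 178, 208 and 263 in mid anagen and 162, 195 and 200.5 in late anagen. Its mid catagen arrays were 374, 328 and 376 and its telogen arrays 494, 412 and 315, with early catagen 126 at the lowest, 146 at the median and 253 at the highest. It fell to mid anagen (-1.09 ± 0.16, adjusted p = 0.00734) and rose in mid catagen (1.11 ± 0.22, adjusted p = 0.00539). The other kept probe sets of Col23a1 gave -0.67 (adjusted p = 0.0511) and 0.32 (adjusted p = 0.579) from early to mid anagen. The fall was thus called with 1 probe set only. For mid catagen they gave 0.60 (adjusted p = 0.0385) and 0.96 (adjusted p = 0.0462). Col13a1, a transmembrane chain of cell adhesion sites, was the only tested chain gene with a called fall in mid catagen (-1.63 ± 0.31, adjusted p = 0.00418), from early catagen arrays 124 at the lowest, 183 at the median and 326 at the highest to 97.5, 48.7 and 48.7.

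Multiplexins are basement membrane collagens with long non-collagenous ends, and their 2 genes differed in course. Col15a1 was 2854, 2379, 3258 and 1959.6 in early anagen, 1379, 895 and 1205 in mid anagen and 941, 732 and 593 in late anagen. It was 1037, 1346 and 1099.8 in mid catagen and 1125, 2411 and 1875 in telogen, with early catagen 677 at the lowest, 837 at the median and 984 at the highest. It fell to mid anagen (-1.17 ± 0.22, adjusted p = 0.014), a call lost without replicate 2 of P27. Col18a1, the source of endostatin, was 1866, 2105, 2222 and 2064 in early anagen, 1978, 2069 and 1728 in mid anagen and 1911, 2040.2 and 1874 in late anagen. It was 1799, 1753 and 1791 in mid catagen, early catagen was 1884 at the lowest, 1951 at the median and 2139 at the highest, and telogen was 1194, 1358 and 1205. The values of Col18a1 from P23 to P41 thus lay between 1728 and 2222, and all telogen arrays were below them. Early anagen was above telogen (0.72 ± 0.11, adjusted p = 0.00484) and telogen below late anagen (-0.63 ± 0.12, adjusted p = 0.00662).

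The network chains Col8a1 and Col8a2 build the short-chain lattice known from vessel walls and the cornea. Col8a1 was 214, 189, 381 and 206 in early anagen, 263, 178 and 215 in mid anagen and 201, 177 and 192 in late anagen. It was 160, 154 and 141 in mid catagen and 289.5, 359.5 and 381 in telogen, with early catagen 131 at the lowest, 161 at the median and 189 at the highest. Col8a2 was 172, 281, 296 and 271 in early anagen, 188, 204 and 237 in mid anagen and 192, 186 and 160.5 in late anagen. Its mid catagen arrays were 433, 706 and 709.9 and its telogen arrays 572, 448 and 526, with early catagen 154 at the lowest, 211 at the median and 233 at the highest. The rise of Col8a2 came in mid catagen (1.58 ± 0.19, adjusted p = 0.000553), and that of Col8a1 passed only between mid catagen and telogen (1.17 ± 0.15, adjusted p = 0.00978). In telogen Col8a2 was above late anagen by 1.52 ± 0.15 and Col8a1 by 0.85 ± 0.15. A second kept probe set of Col8a1 gave 0.23 there (adjusted p = 0.487). The call of Col8a1 between mid catagen and telogen was lost without replicate 2 of P41 (adjusted p = 0.054). Early anagen was below telogen for Col8a2 (-1.04 ± 0.21, adjusted p = 0.0124), with adjusted p = 0.052 when P25 alone stood for early anagen. Col10a1, the network chain of cartilage, was under the floor on 32 arrays.

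After depilation 10 of the 33 genes changed over the 5 time points (limma F test, 10 arrays), against 11.8% of all genes. These were Col11a1, Col5a1 and Col5a3 of the fibrillar genes, Col6a1, Col6a2 and Col6a3, Col4a1 and Col4a6, Col12a1 and Col23a1. The count was 4 without replicate 1 of D3, D12 or D17, 5 without replicate 2 of D17 and 6 without replicate 2 of D12. From D3 to D5, 5 rose and 1 fell (2.27% and 0.863% of all genes), and 3 were called without replicate 1 of D3, replicate 2 of D5 or either array of D8. From D5 to D8 and D12, 0 rose and 2 fell (0.614% and 0.156%), with 0 to 6 called when 1 array was left out. At D17 0 chain genes and 0 of all genes passed against D8 and D12 in limma (0% in each direction), with 7 chain genes at an unadjusted p under 0.05. The share of all genes at that unadjusted threshold is not given here.

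Col11a1 was 84.1 and 79.5 at D3, 1519 and 1416 at D5, 1001 and 1127 at D8, 313 and 323 at D12 and 301 and 247 at D17. It rose 17.9-fold from D3 to D5 (4.16 ± 0.16, adjusted p = 7.2e-05), with 3.42 for its second probe set. The later fall, -1.33 ± 0.14, adjusted p = 0.0114, was lost without replicate 1 of D5, replicate 1 of D8 or either array of D12. Col12a1 was 412 and 515 at D3, 1129 and 1369 at D5, 1463 and 1472 at D8, 836 and 1134 at D12 and 1289.8 and 828 at D17. Its rise to D5 was 1.43 ± 0.26, adjusted p = 0.0382, and it was lost without any 1 array of D3 to D12. Both genes were low on the D3 arrays and at their highest at D5 or D8.

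Col5a1 was 1319 and 1159 at D3, 3048 and 2928 at D5, 2404 and 1987 at D8, 1069 and 1099.6 at D12 and 1012 and 1055 at D17. The rise was 1.27 ± 0.16, adjusted p = 0.0107 and the fall after D5 -0.96 ± 0.14, adjusted p = 0.038, the latter lost without any 1 of 9 of the 10 arrays. Col6a3 was 3631 and 4620.1 at D3, 10024 and 7379.7 at D5, 5682 and 5067 at D8, 3252 and 3172 at D12 and 3006 and 3398 at D17. Both genes were thus highest at D5, and their D12 arrays were below their D3 arrays. The calls of Col6a3 (1.07 ± 0.20, adjusted p = 0.0416) and Col15a1 (1.58 ± 0.31, adjusted p = 0.0475) from D3 to D5 were both lost without any 1 of the 10 arrays. Col6a1 went from 2989 and 3554 at D3 to 7999 and 5856 at D5 and 2653 and 2488 at D17. Col15a1 went from 478 and 414 to 1706 and 1038 and then to 502 and 642 on the same days.

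Col4a6 went the other way. It was 588 and 565 at D3, 191 and 221 at D5, 271 and 297 at D8, 326 and 355 at D12 and 357 and 306 at D17. Its fall from D3 to D5 (-1.49 ± 0.16, adjusted p = 0.00641) left the D5 arrays as the lowest of all 33. Col4a1 was 3815 and 4295 at D3, 6388 and 6703 at D5, 7678 and 6833 at D8, 4356 and 4099 at D12 and 4116 and 4398 at D17. Its 4 highest depilation arrays were those of D5 and D8, and the F test passed (adjusted p = 0.0237). A second probe set of Col4a1 gave an adjusted p of 0.242 for that test. Col17a1 was 14001 and 14245 at D3 and 5299.7 and 5012 at D5, and ranged from 3488 to 6618 later. Its F test had an adjusted p of 0.0551, with the D3 arrays far above the rest. Col7a1 was 1678 and 1429 at D3, 998 and 749 at D5 and 626 and 647 at D8, with 231 and 636 at D12 and 690.2 and 487 at D17 (F test, adjusted p = 0.0922).

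Of the remaining genes described in full, Col23a1 was 597 and 671 at D3 and 132 and 219 at D12. Col8a1 was 364 and 418 at D3 and 158 and 81.9 at D12, whereas Col8a2 lay between 64.5 and 185 throughout. Col18a1 was 1158 and 1411 at D3 and 1938 and 2063 at D17, and its F test gave an adjusted p of 0.0907. Col27a1 ranged from 205 to 731, and Col14a1 was 569.9 and 1059 at D3 and 1559 and 3029 at D5. Col1a1 was 3871 and 8244 at D3, 15500.4 and 14615 at D5 and 8661 and 8967 at D17, and Col3a1 was 21941 and 21277 at D3 and 21692 and 20997 at D17. None of these genes but Col23a1 passed the F test.

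Skin 3 days after waxing was compared with the rest state of the natural cycle, telogen, and with natural early anagen, in a fit of all 33 arrays. The comparisons share the D3 arrays. Against telogen, 1 chain gene was higher at D3 and 17 were lower, where 13.2% and 18.7% of all genes were called, and the median log2 difference was -0.61 over the 33 genes and -0.06 over all genes. By the probe set that stands for each gene, Col1a1 was lowest relative to telogen (-2.77 ± 0.39, adjusted p = 2.61e-05), followed by Col4a4 (-2.66), Col8a2 (-2.48), Col14a1 (-2.33) and Col5a1 (-2.21), all without overlap. This order depends on the probe set, since the dimmer ones gave -2.19 for Col1a1, -2.93 and -3.60 for Col1a2 (-1.67 with the brightest) and -2.85 for Col3a1 (-1.06), all of them called. The difference of Col4a3 was read against D3 arrays that were both under the floor, and that of Col2a1 against 1 such array of 2. Col23a1 was higher (0.66 ± 0.23, adjusted p = 0.0324), a call lost without either array of D3 or replicate 2 or 3 of P44. The other kept probe sets of Col23a1 gave 1.06 (adjusted p = 0.0067) and 2.49 (adjusted p = 6.17e-05). Col11a1 was low in both, 0.06 apart (adjusted p = 0.917), SE 0.34. All 3 tested type VI chains and 4 of 6 type IV chains were lower at D3.

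Against natural early anagen, 2 chain genes were higher at D3 and 23 lower, beside 17% and 25.8% of all genes, with medians of -1.27 and -0.08. All 9 tested fibrillar genes were lower. The differences were largest for Col11a1 (-3.42 ± 0.33, adjusted p = 8.72e-08), Col14a1 (-2.82), Col5a1 (-2.73), Col1a1 (-2.63) and Col15a1 (-2.53). Dimmer probe sets gave -2.99 and -4.24 for Col1a2 and -3.28 for Col3a1, against -1.44 and -0.85 with the brightest, so this order too depends on the probe set. Col17a1 (1.50 ± 0.26, adjusted p = 9.29e-05) and Col8a1 (0.72 ± 0.27, adjusted p = 0.0336) were higher, and Col8a1 was lost without either D3 array, replicate 2 of P23 or replicate 2 of P25. D8 and D12 were then compared with natural late anagen, and here 3 chain genes were higher and 5 lower (10.8% and 8.59% of all genes). Col17a1 (0.96 ± 0.23, adjusted p = 0.00382), Col11a1 (0.79 ± 0.29, adjusted p = 0.0467) and Col12a1 (0.64 ± 0.18, adjusted p = 0.0117) were higher, and Col1a1 (-1.06), Col1a2 (-0.87), Col3a1 (-0.61), Col4a3 and Col20a1 lower. Col4a3 was under the floor on 3 of its 4 D8 and D12 arrays and Col20a1 on 1 of 4, so their fitted differences are not given. The second probe sets of Col1a1 (-0.77, adjusted p = 0.203) and Col3a1 (-0.91, adjusted p = 0.212) did not pass. After quantile normalization the split was 3 higher and 2 lower. The second probe sets of Col11a1 and Col12a1 gave differences of -0.20 and -0.58 that did not pass, so their higher level at D8 and D12 was seen with 1 probe set only. The count was 3 without replicate 2 of D12, 4 without replicate 1 of P29 and 5 without replicate 2 of P29.

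The change from early to late anagen, (D8 and D12 minus D3) minus (P29 minus P23 and P25), was more positive after depilation for 17 chain genes and more negative for 1, where 13.5% and 6.18% of all genes were called. Its median was 1.13 over the 33 genes and 0.11 over all genes. The contrast is built from the same arrays as the comparisons of D3 with early anagen and of D8 and D12 with late anagen above. It is therefore no independent result. Col11a1 changed by -1.38 in the natural course and by 2.83 after depilation, a difference of 4.21 ± 0.43, adjusted p = 2.3e-06. Col14a1 changed by -1.93 and 1.12, and Col15a1 by -1.79 and 0.70. Col5a1 changed by -1.96 and 0.32, and Col12a1 by -0.57 and 1.38. Col6a3 changed by -1.66 in the natural course and by 0.02 after depilation. These changes in the 2 courses are log2 differences of means and were tested only against each other. Col8a1 was the gene with the more negative change (-1.02 ± 0.36, adjusted p = 0.0494), lost without any 1 of 23 of the 33 arrays.

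**Figure D3:**
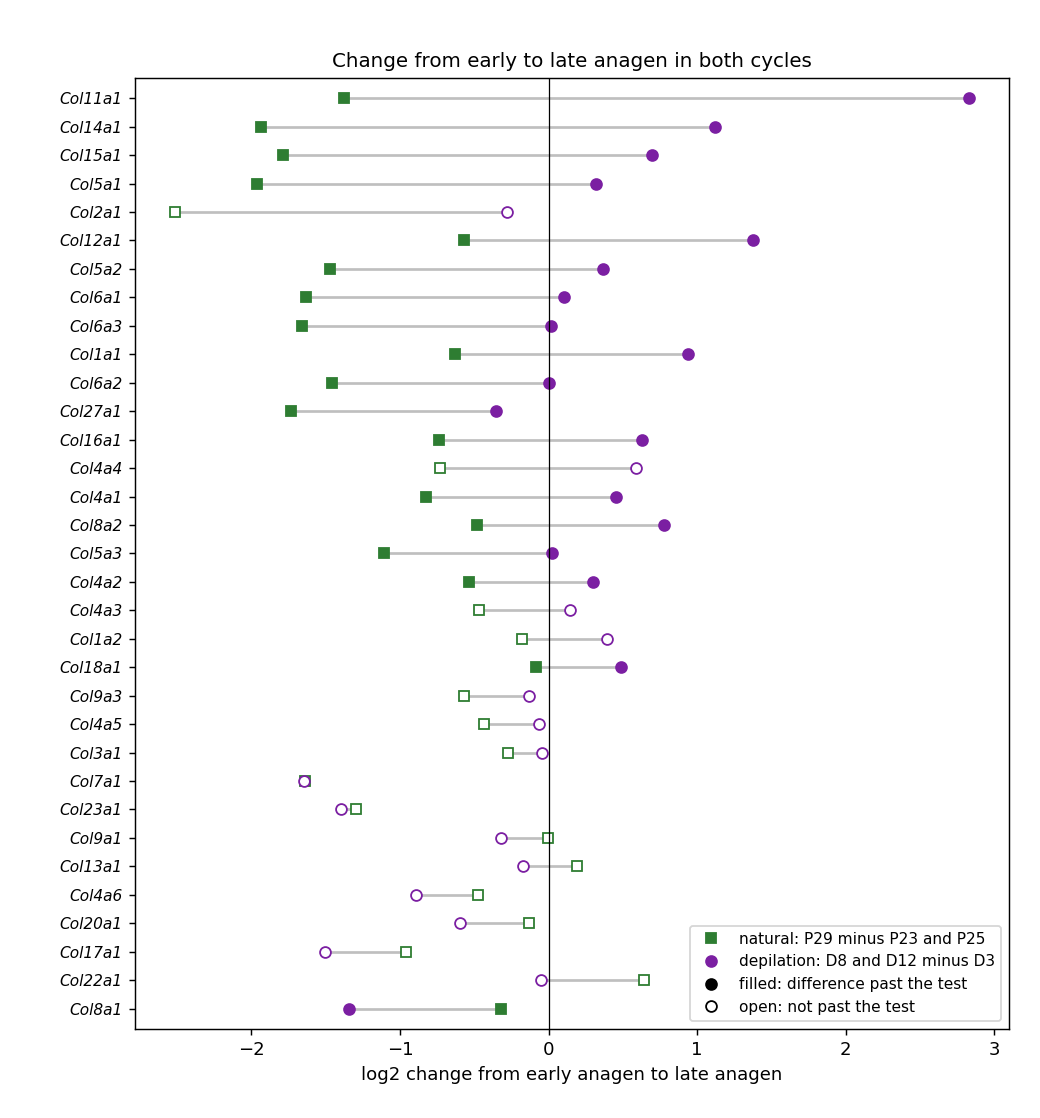
Log2 change from early to late anagen (horizontal axis) of each tested chain gene (rows, ordered by the difference between the courses), with a square for the natural course (P29 minus P23 and P25), a circle for the depilation course (D8 and D12 minus D3) and a line joining them. Symbols are filled for the 18 genes called in the test of the difference, and for 17 of these the circle lies to the right of the square.

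Since all waxed mice were female, the comparisons with the natural cycle were repeated on the 20 female arrays alone. Between D3 and telogen 0 chain genes were then higher and 14 lower, where 5.29% and 7.57% of all genes were called. Between D3 and early anagen, with P25 alone, 0 were higher and 21 lower (6.35% and 11.7% of all genes), and between D8 and D12 and late anagen 1 and 2 (4.81% and 4.43%). The change of course was more positive after depilation for 14 and more negative for 0 (5.2% and 2.55%). Each natural phase but late anagen and early catagen then rests on 1 female mouse, whose spread is taken as that of the other groups. The higher level of Col17a1 at D3 than in early anagen was 1.17 among females, with an adjusted p of 0.0866.

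Male and female mice of the natural cycle were compared within time points, a comparison chosen after the signals had been seen. Col1a1 was 34840.4 ± 7254 (mean signal ± SD) on 11 male arrays and 21191 ± 7776 on 9 female arrays of the 7 time points with both sexes. At P44 the female array was at 26044 and the males at 50018 and 44273. All males were above all females at 6 of these time points and below at 1. In the fit of 22 arrays with time point as a term, 13 of them male, the male minus female difference was 0.71 ± 0.12, adjusted p = 0.0148. Col1a2 was higher in males at 7 of 7 time points (0.40 ± 0.08, adjusted p = 0.0285), and Col3a1 at 6 of 7 (0.32 ± 0.07, adjusted p = 0.0506). Both chains of type I collagen thus passed and that of type III did not. Of the 33 genes 2 were higher in males and 0 lower, against 0.156% and 0.482% of all genes. The median over the 33 was 0.03.

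**Figure D4:**
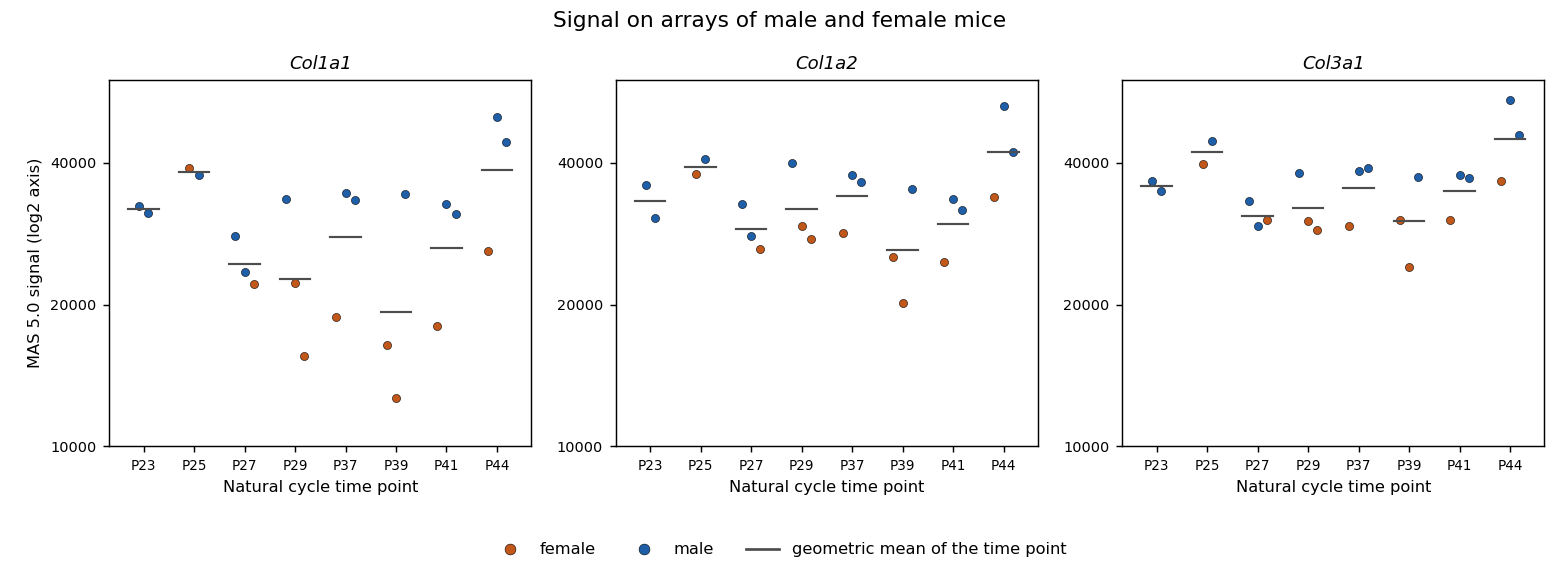
Signal (log axis) of Col1a1, Col1a2 and Col3a1 on each natural array but that of P34, by time point, with male and female mice in different colours and a line for the geometric mean. The male points of Col1a2 lie above the female points at every time point with both sexes.

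The call of Col1a1 was lost without replicate 1 of P37, replicate 3 of P39, replicate 1 of P41 or replicate 1 of P44, with adjusted p up to 0.0696, and that of Col1a2 without any 1 of 6 arrays, up to 0.101. The count was 6 without replicate 3 of P27. With sex as a term in the natural F test, Col1a2 (adjusted p = 0.0376) and Col3a1 (adjusted p = 0.0231) passed, and Col1a1 had an adjusted p of 0.0719. In the same comparison 4 genes of collagen synthesis and turnover were called higher in males and 0 lower, where 20 and 62 of 12859 genes tested were called. The 4 genes were P4ha2, a prolyl hydroxylase subunit (1.07), Creb3l1, a transcription factor of collagen-secreting cells (1.03), Mrc2, an uptake receptor for collagen (0.68), and Sparc, a collagen chaperone (0.65). They came from lists of 12 hydroxylases and glycosyltransferases (differences -0.76 to 1.07), 9 chaperones and secretion factors (0.11 to 1.03) and 5 receptors (-0.08 to 0.68). The 5 processing genes (-0.16 to 0.84) and 4 crosslinking genes (-0.47 to 1.07) had 0 called. Of 12 dermal fibroblast markers 0 were called in either direction in limma, with 1 at an unadjusted p under 0.05 and higher, and their median was -0.07.

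The genes that make, trim, crosslink and bind collagen were read from 5 lists. From early to mid anagen 12.6% of all genes fell and 6.22% rose. Among hydroxylases and glycosyltransferases, which modify the chains, 8 of 12 fell from early to mid anagen and 0 rose, among them P3h3 (-1.24) and Crtap (-0.90), which act in prolyl 3-hydroxylation. Among chaperones and secretion factors 8 of 9 fell, with a median of -1.02 beside -0.10 over all genes, including Creb3l1 (-1.42) and Kdelr3 (-1.80), which retrieves proteins to the endoplasmic reticulum. Of 5 procollagen processing genes 4 fell, with the enhancers Pcolce (-0.97) and Pcolce2 (-0.91) the first by p. Of 4 crosslinking genes 3 fell, with Loxl1 (-1.45) and Loxl4 (-0.79) the first by p. Receptors fell for 2 of 5, Mrc2 (-1.26) and Ddr2 (-0.92), a collagen-binding kinase. From early to mid catagen 4, 5, 2, 1 and 2 genes of these lists rose in the same order, and 1 processing gene fell, beside 20.6% and 18.5% of all genes.

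At D3, against telogen, where 18.7% of all genes were lower and 13.2% higher, 6 of 12 hydroxylases and glycosyltransferases were lower, with P3h3 (-1.74) and Crtap (-0.84) first by p. Chaperones and secretion factors were lower for 8 of 9, with a median of -1.77, including Sec24d (-1.34), a coat protein of export vesicles, and Kdelr3 (-2.36). Processing genes were lower for 4 of 5, among them Pcolce2 (-3.09) and Bmp1 (-1.43), the procollagen C-proteinase. Crosslinking enzymes were lower for 2 of 4, Loxl1 (-1.63) and Lox (-1.87), and receptors for 2 of 5, Ddr2 (-1.32) and Mrc2 (-1.87). None of these lists had a gene called higher at D3 than in telogen. Against natural early anagen the lower counts were 7 of 12, 8 of 9, 4 of 5, 3 of 4 and 4 of 5, with 1 hydroxylase and 1 receptor higher (25.8% and 17% of all genes). From D3 to D5, 1 hydroxylase, P3h1 (1.22), and 2 chaperones, Serpinh1 (1.43), the collagen chaperone, and Creb3l1 (1.08), rose.

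Markers of the cells of the skin were counted beside these results. Of 12 dermal fibroblast markers, none of them a collagen, 8 fell from early to mid anagen, 8 rose in mid catagen, 11 were higher in telogen than in late anagen, 10 were lower at D3 than in telogen and 9 lower at D3 than in early anagen, with 0 called the other way in each. The shares of all genes called in these comparisons are those given with the chain genes. Their summed signal was 73124 to 106111 in early anagen, 36493 to 40189.5 in late anagen, 96256 to 111507 in telogen and 41081 to 60801 at D3. In bulk skin, fewer cells of a type and less RNA per cell cannot be told apart. Muscle markers, another source of type IV and type VI collagen, summed to 150926 to 197471 in early anagen, 95204 to 139451 in late anagen, 256536 to 288648 in telogen and 262844 to 362622 at D3. Of 10 of them 4 fell to mid anagen, 10 were higher in telogen than in late anagen and 0 were called between D3 and telogen in limma, with 0 at an unadjusted p under 0.05. At D3 6 of the 10 were higher than in early anagen and 0 lower. Endothelial markers fell for 2 of 8 to mid anagen and were higher for 7 of 8 in telogen than in late anagen. Schwann cell markers moved likewise for 3 of 5 and 3 of 5, leukocyte markers for 3 of 7 and 7 of 7, and adipocyte markers for 0 of 7 and 2 of 7. The part of these markers in the changes of the chain genes was not tested.

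Beside Col17a1 and Col7a1, whose chains are made by basal keratinocytes, 7 basal keratinocyte markers summed to 64494 to 71835 in early anagen, 53707 to 59498 in late anagen, 79094 to 90167 in telogen and 102568 to 120536 at D3. Of these 7 markers 5 were higher in telogen than in late anagen, 4 higher at D3 than in telogen and 5 higher at D3 than in early anagen. Cornified epidermis markers were higher in telogen than in late anagen for 5 of 7 and lower for 1. Beside Col11a1 and Col12a1, 6 of 9 dermal papilla markers were higher in early anagen than in telogen and 6 of 9 lower at D3 than in early anagen. Hair matrix and shaft markers, the measure of the growing follicle, summed to 10021 to 17586 in early anagen, 64807 to 71345 in late anagen, 1789.9 to 2290.5 in telogen and 4436 to 5854 at D3. Of 9 composition markers chosen by the study 7 fell from early to mid anagen and 8 were higher in telogen than in late anagen. Their part in the results was likewise not tested.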

How the data were processed

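RNA from dorsal skin of 33 C57BL/6 mice was hybridized to whole-genome expression arrays of Affymetrix, 1 mouse for each array. The deposited values are signal intensities that the authors computed with MAS 5, on a linear scale and with nearly equal trimmed means. The methods leave outlying samples out of later analyses, and whether any of them are among these 33 is not given in the sources used here. Days and sex follow the labels. Phases follow the methods and the series description, since the labels of P41, P44 and the depilation days name early anagen. Precision is limited by the number of arrays.

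A floor of 34.6, the 25th percentile over the table, was applied before log2. The filter on low signals kept 26988 of 45037 probe sets, of which 0.941% to 3.73% were under the floor on an array. A single symbol was given for 34945 probe sets, several for 932 and none for 9160, and all 42 chain genes matched RefSeq by Entrez identifier with 0 symbols changed. All kept probe sets were tested with limma 3.58.1 in R 4.3.3 (tables read with the data.table package), with Benjamini-Hochberg adjustment over them and a threshold of 0.05. Natural phases were compared on the arrays of the phases concerned, depilation days on their 10 arrays, and the courses with each other on all 33 arrays with 1 mean per time point, so 16 comparisons share arrays. The code was tested on simulated data, and figures were drawn with matplotlib 3.10.9.

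The members and lists were chosen with earlier results of these data known. Of 139 entries in 16 lists (5 of collagen synthesis and turnover, 10 of cell type markers and 1 of composition markers used by the study), 131 matched a gene and 124 were kept. Array values are given for Col1a1, Col3a1, Col4a1, Col6a1, Col7a1, Col17a1, Col18a1 and the 2 genes of each type with the largest natural F, the 5 largest called rises and falls are named for each comparison, and the 2 called genes with the smallest p for each pathway list. Other genes were chosen after their values were seen. Alternatives were a floor at the 10th percentile, no filter, a filter on all 33 arrays, quantile normalization, a joint fit, plain analysis of variance, sex or replicate number as a term, the mean of the probe sets, P25 alone, P34 added and each array left out. The second probe set, the female arrays alone and the comparison of the sexes were added after the data were seen.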

Additional observations from a re-analysis of the deposited data

Results flagged for a closer look

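Within groups of 4 to 10 arrays the gap between an extreme array and the next was set against the range, in 51 groups of values, of which chance marks about 1 in 20. In 3 of them 1 array stood apart. Replicate 2 of P25 read 1529.3 for Col12a1 in early anagen, where the other arrays read 993 to 1061. Replicate 1 of D12 read 230.8 for Col7a1 among the D8 and D12 arrays, where the others read 625.5 to 647. Replicate 1 of P23 read 171.6 for Col8a2 in early anagen, where the others read 271 to 296.

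The change from early to late anagen differed between the courses for 18 chain genes (limma interaction contrast, adjusted over all kept probe sets), 17 with the more positive change after depilation. Among these 18 the difference was largest for Col11a1 at 4.21 on the log2 scale, Col14a1 at 3.05, Col15a1 at 2.49, Col5a1 at 2.28 and Col12a1 at 1.95. Then came Col5a2 at 1.84 (-1.47 in the natural course and 0.36 after depilation), Col6a1 at 1.74 (-1.64 in the natural course and 0.10 after depilation), Col6a3 at 1.68 (-1.66 in the natural course and 0.02 after depilation) and Col1a1 at 1.57 (-0.63 in the natural course and 0.94 after depilation). Smaller were Col6a2 at 1.46 (-1.46 in the natural course and 0.00 after depilation), Col27a1 at 1.38 (-1.73 in the natural course and -0.36 after depilation), Col16a1 at 1.37 (-0.74 in the natural course and 0.63 after depilation) and Col4a1 at 1.28 (-0.83 in the natural course and 0.45 after depilation). The smallest positive differences were Col8a2 at 1.25 (-0.48 in the natural course and 0.77 after depilation), Col5a3 at 1.13 (-1.11 in the natural course and 0.02 after depilation), Col4a2 at 0.83 (-0.53 in the natural course and 0.30 after depilation) and Col18a1 at 0.57 (-0.09 in the natural course and 0.48 after depilation). Of the 18 only Col8a1 had the more negative change after depilation, -1.02 (-0.32 in the natural course and -1.35 after depilation). Waxing, age and sex differ together between the courses, and the contrast shares its arrays with the comparison of D3 and natural early anagen.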

How the results depend on the processing

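Of 1618 values of single called genes under the alternatives that keep every array, 1446 kept their direction and their side of the threshold, 170 kept only the direction and 2 reversed. Both reversals were of the second probe set between D8 and D12 and natural late anagen, at -0.20 for Col11a1 (adjusted p = 0.684) and -0.58 for Col12a1 (adjusted p = 0.0765). With 1 array left out, 3219 of 3510 stayed called and 0 reversed. Quantile normalization changed no direction of a call, and it moved the median of all genes by less than 0.1 in every comparison. Single chain genes moved more, by up to 0.43 on the log2 scale, between telogen and mid catagen. Counts of called chain genes over 1.5 times apart from those given above follow, and the cause was not tested. Between early anagen and telogen the mean of the probe sets gave 13 and P25 alone 4, and between mid and early anagen P25 alone gave 3. The joint fit gave 2 between late and mid anagen, 18 in the depilation F test, 11 between D5 and D3 and 5 between D8 and D12 and D5. The mean of the probe sets gave 7 between telogen and mid catagen and 4 between D8 and D12 and D5, and the second probe set gave 1 there. No filter gave 6 in the depilation F test, and the stricter filter 11 between D5 and D3. Between D8 and D12 and natural late anagen no filter, the stricter filter, quantile normalization and the second probe set gave 5 each, the mean of the probe sets 4 and the female arrays 3. Between males and females quantile normalization gave 1. With the replicate block, 2 were called between telogen and mid catagen, 3 between D5 and D3, 1 between D8 and D12 and D5 and 0 between males and females (2 unblocked), and other counts stayed within 1.5 times. Deviations of same-numbered arrays from their group means correlated at -0.262 to 0.387 over 171 pairs (median 0.0039). In groups of 2 arrays the deviations mirror each other, so these values cannot decide whether replicate numbers paired any of the mice.

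Leaving out each array gave 25 to 27 in the natural F test, 7 to 10 between early anagen and telogen, 14 to 21 between telogen and late anagen, 15 to 18 between D3 and telogen, 23 to 25 between D3 and early anagen, 12 to 20 for the change of course (12 without replicate 1 of D3), 0 for the 3 comparisons with no call, 9 to 15 between mid and early anagen, 9 to 18 between mid and early catagen, 1 to 2 between telogen and mid catagen, 4 to 13 in the depilation F test, 3 to 4 between D5 and D3, 0 to 6 between D8 and D12 and D5, 3 to 8 between D8 and D12 and natural late anagen and 0 to 6 between males and females. At 2 arrays a day after depilation, and for genes near the floor, small differences could not be seen.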
